A study of Mus musculus with 18 samples.

Results

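Transcripts of 9 genes that serve the last steps of protein digestion at the intestinal brush border were followed in mouse ileum cells. They comprise the peptide transporter gene *Slc15a1*, the amino acid transporter gene *Slc6a19* and the genes of 7 membrane peptidases, *Anpep*, *Enpep*, *Dpp4*, *Mep1a*, *Mep1b*, *Ace* and *Xpnpep2*. The genes were taken by name, and the brightest non-control array probe stood for each. All 9 passed the filter on dim probes, among 21542 gene names that did. Of their 16 probes on the array, 14 passed, and both probes that did not belong to *Mep1b*.

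The arrays came from 3 groups with 6 mice each. Every mouse carried floxed *Ppargc1a* alleles (the gene of Pgc1α) on a C57BL6/J background. The iPGC1afl/fl mice have no Cre and received either CHOW or HFD, and the iPGC1a-/- mice, which also carry a Vil1-Cre transgene that deletes floxed exons in the intestinal epithelium, received HFD. iPGC1a-/- mice on CHOW were not analysed here. HFD, which the methods call a Western diet, supplied 42% of its kcal as fat with 0.2% cholesterol, and feeding ran for 8 weeks from the age of 8 weeks. Mice were killed at Zeitgeber time 3 after an overnight fast. The cells were released from the ileum by chelation (a modified Weiser method), so RNA was measured in bulk from mixed cells.

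The brush border is the microvillus membrane of enterocytes. Its anchored peptidases trim the peptides left by gastric and pancreatic proteases, each with its own preference for the residues near the cut. The resulting short peptides enter the cell through the proton-coupled transporter encoded by *Slc15a1*, and free neutral amino acids enter through the sodium-coupled transporter encoded by *Slc6a19*.

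Upstream sequences are given for the genes that rose with HFD, because these moved in the same direction and their starts can be set side by side. They were taken from RefSeq (GRCm38.p6), 250 bases ending just before the annotated start, read 5′ to 3′ on the strand of the gene. Windows were read for the 8 genes other than *Mep1b*, 9 in all, since *Ace* has a further start inside the gene, known from testis. Capitals mark matches on either strand to 5 short motifs. CAAAG is the core of sites for HNF4 proteins. TTTAT is the core of CDX sites, and GATAAG is the site of the GATA family. GGGCGG is the GC box, and the TATA box was searched as TATAAA. A match on the reverse strand reads as the reverse complement (CTTTG for CAAAG), and the reversed TATA match holds a TTTAT match.
Slc15a1: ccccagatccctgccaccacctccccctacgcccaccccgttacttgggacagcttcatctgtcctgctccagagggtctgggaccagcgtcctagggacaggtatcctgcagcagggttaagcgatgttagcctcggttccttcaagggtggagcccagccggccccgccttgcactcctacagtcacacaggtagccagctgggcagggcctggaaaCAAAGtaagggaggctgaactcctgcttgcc
Slc6a19: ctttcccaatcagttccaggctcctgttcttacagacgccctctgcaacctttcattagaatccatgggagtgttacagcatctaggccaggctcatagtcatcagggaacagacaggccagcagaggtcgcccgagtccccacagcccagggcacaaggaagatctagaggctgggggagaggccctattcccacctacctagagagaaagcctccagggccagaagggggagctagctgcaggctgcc
Mep1a: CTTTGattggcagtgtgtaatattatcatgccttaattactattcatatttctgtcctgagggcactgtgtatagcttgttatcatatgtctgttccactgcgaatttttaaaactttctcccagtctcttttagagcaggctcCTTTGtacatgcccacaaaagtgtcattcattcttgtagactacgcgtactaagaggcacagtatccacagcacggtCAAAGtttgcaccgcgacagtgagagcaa
Ace: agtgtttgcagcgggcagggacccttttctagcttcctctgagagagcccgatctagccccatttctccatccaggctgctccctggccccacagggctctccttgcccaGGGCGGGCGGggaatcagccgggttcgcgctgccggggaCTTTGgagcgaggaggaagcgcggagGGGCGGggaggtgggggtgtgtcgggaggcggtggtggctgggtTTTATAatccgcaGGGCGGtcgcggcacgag
Xpnpep2: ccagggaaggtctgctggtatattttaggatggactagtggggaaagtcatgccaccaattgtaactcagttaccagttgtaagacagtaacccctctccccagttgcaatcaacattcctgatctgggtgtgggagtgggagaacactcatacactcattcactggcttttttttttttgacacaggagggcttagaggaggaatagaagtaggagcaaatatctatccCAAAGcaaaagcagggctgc
The *Slc15a1* window is chr14:121505255-121505504, the *Slc6a19* window chr13:73692637-73692886, the *Mep1a* window chr17:43502774-43503023, the *Ace* window chr11:105967698-105967947 and the *Xpnpep2* window chrX:48108475-48108724. The CAAAG match nearest the start lay 31 to 27 bases before it in *Slc15a1*, 29 to 25 in *Mep1a* and 20 to 16 in *Xpnpep2*. Reversed CAAAG matches lay further off, at 250 to 246 and 106 to 102 bases in *Mep1a* and 101 to 97 in *Ace*. The windows of *Enpep* and *Dpp4*, which were not called for diet, also held CAAAG. In *Ace* a reversed TATA match lay 31 to 26 bases before the start, and 4 GC boxes were found, a pair of which overlap. No searched motif matched in the *Slc6a19* window. CAAAG occurred in 7 of the 9 windows and in 48.6% of all 32851 windows of this length, TTTAT in 3 (37.3% of all), GGGCGG in 2 (32.7%), TATAAA in 3 (12.4%) and GATAAG in 1 (6.55%). These are matches of letters, and binding was not measured.

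The arrays were single-colour Agilent arrays, on which Cy3-labelled cRNA binds printed probes and more transcript gives a brighter spot. Values below are log2 normalised signals, and a log2 fold change is the difference between group means on that scale. The authors deposited spot intensities that were not normalised between arrays. Spots well above background made up 56.3% to 62.3% per array, with a median spot signal of 39 to 61 over a background of 17 to 23 and 0 saturated spots. Precision is set by the number of arrays, and the standard error of a fold change had a median of 0.12 (log2) over the 9 genes. The probes of *Ppargc1a*, whose exons were not determined here, did not give lower signals in the arrays labelled iPGC1a-/-. At the brighter probe, *Ppargc1a* ranged from 11.36 to 12.01 there and from 11.26 to 11.45 in iPGC1afl/fl mice on HFD. A probe outside the deleted exons would not check the deletion. The study reports that RT-qPCR showed the deletion along the intestine. It also reports lower *Tfam*, *Cyt-C* and *Atp5b* in the ileum of these mice. Those measurements were not analysed here. Directions by genotype therefore refer to the labels. In bulk RNA, fewer cells of a type and less RNA per cell cannot be told apart.

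The effect of diet was examined by setting HFD against CHOW in iPGC1afl/fl mice. Both transporter genes and the peptidase genes *Mep1a*, *Ace* and *Xpnpep2* rose, with log2 fold changes from 0.49 to 1.55. *Ace* stood furthest apart, at close to 3 times its CHOW signal (2.93-fold). *Anpep*, *Enpep*, *Dpp4* and *Mep1b* had positive differences of 0.09 to 0.21 that did not pass the test. Thus 5 of 9 genes passed an adjusted p of 0.05 or lower (limma with Benjamini-Hochberg adjustment over all 32726 probes), against 24.6% of all gene names. All 5 were higher, where 10.4% of all names were called higher and 14.2% lower. With a fold change above 1.5 also required, 3 genes remained (*Slc15a1*, *Ace* and *Xpnpep2*), against 3.22% of all names called higher. *Slc15a1* (1.53-fold) and *Xpnpep2* (1.52-fold) lay close to that threshold, which is 0.585 on the log2 scale. With each array left out in turn, their log2 fold changes ran from 0.41 to 0.74 and from 0.52 to 0.67, respectively. The median log2 fold change was 0.49 over the 9 genes and 0.00 over all names. The median over the 9 genes ran from 0.39 to 0.59 with each array left out.

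**Figure D1:**
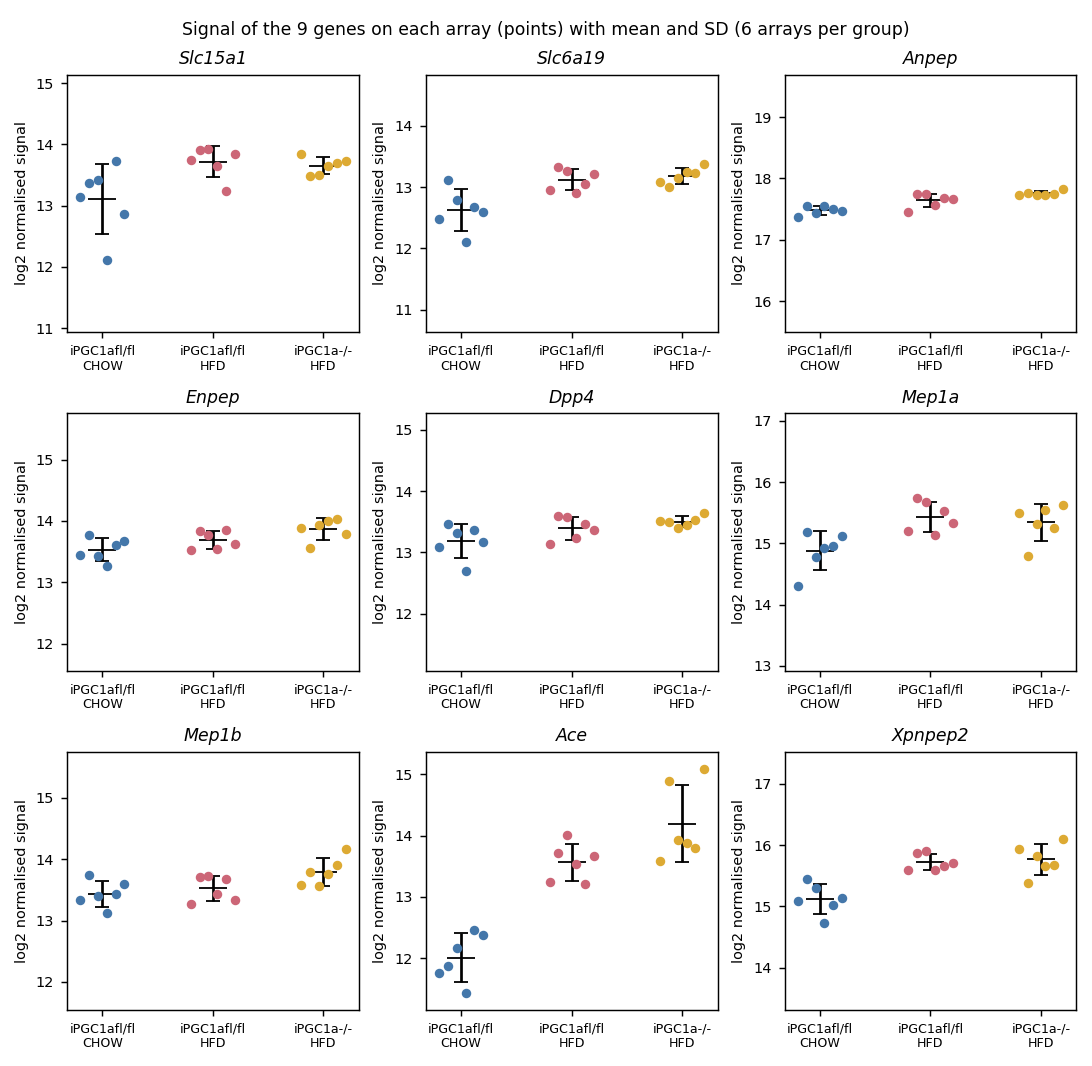
Each panel plots the log2 normalised signal of 1 gene on every array (points) with the mean and SD (bars) for iPGC1afl/fl CHOW, iPGC1afl/fl HFD and iPGC1a-/- HFD, 6 arrays per group. All panels span the same number of log2 units and can be compared. The *Ace* groups are separated, from a CHOW maximum of 12.46 to an HFD minimum of 13.21. The spread of *Anpep* is small on this normalised scale.

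*Slc15a1* encodes the transporter for di- and tripeptides, and its probe lies at chr14:121869878-121869937 (mm9). In iPGC1afl/fl mice on CHOW its lowest, median and highest log2 signals were 12.11, 13.26 and 13.72, and on HFD they were 13.24, 13.79 and 13.92. The groups overlapped, with 4 of 6 HFD arrays above the highest CHOW array, and CHOW had the wider spread (SD 0.57 against 0.26). The log2 fold change was 0.61 (standard error 0.19, adjusted p = 0.0252, limma). The dimmer probe of *Slc15a1* gave 0.60 (adjusted p = 0.0198, limma). The call at the brighter probe was lost when only the 2 groups were fitted (adjusted p = 0.0602), with array weights (0.0647) and without HFD replicate 2 (0.0566), HFD replicate 3 (0.0586) or CHOW replicate 6 (0.0523).

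*Slc6a19* encodes the main apical transporter for neutral amino acids, and its probe lies at chr13:73818718-73818777 (mm9). Its signals on CHOW were 12.10, 12.63 and 13.12 (lowest, median and highest), and on HFD 12.90, 13.13 and 13.32. Of the 6 HFD arrays, 3 exceeded every CHOW array. The log2 fold change of *Slc6a19* was 0.49 (standard error 0.13, adjusted p = 0.00798, limma), and the difference was 0.45 to 0.55 within each of the 3 slides. With each array left out in turn, the *Slc6a19* value ran from 0.39 to 0.59.

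The aminopeptidase genes *Anpep* and *Enpep* did not pass the test for diet. *Anpep* encodes aminopeptidase N, which removes neutral residues from the N-terminus, and its probe (chr7:86966716-86966775, mm9) ranked 27 of 56605 probes by raw signal. *Anpep* ran from 17.37 to 17.55 on CHOW (median 17.49) and from 17.46 to 17.75 on HFD (median 17.67). The groups overlapped at a single HFD array, with the other 5 of 6 above all CHOW arrays. The log2 fold change of *Anpep* was 0.16 (95% confidence interval 0.02 to 0.30, adjusted p = 0.0817, limma), and it was 0.31 (adjusted p = 0.125) when median signals were scaled to the 75th percentile instead. The standard error of the *Anpep* value was 0.065 in the former fit and 0.14 in the latter. *Enpep* encodes aminopeptidase A, which removes acidic residues, and its probe lies at chr3:128972910-128972969 (mm9). *Enpep* ran from 13.27 to 13.77 on CHOW (median 13.53) and from 13.53 to 13.85 on HFD (median 13.70), a log2 fold change of 0.16 (interval -0.04 to 0.36, adjusted p = 0.254, limma). Only 2 of 6 HFD arrays lay above every CHOW array, and the *Enpep* value was 0.11 without CHOW replicate 4. The dimmer *Enpep* probe gave 0.33 (interval 0.05 to 0.61, adjusted p = 0.0838, limma), also not called.

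*Dpp4* encodes dipeptidyl peptidase 4, which releases dipeptides ending in proline or alanine and also inactivates incretin hormones. Its probe (chr2:62170062-62170121, mm9) gave 12.69, 13.25 and 13.46 on CHOW and 13.14, 13.42 and 13.59 on HFD (lowest, median and highest). Exactly 3 of 6 HFD arrays were above all CHOW arrays, and the log2 fold change of 0.21 for *Dpp4* did not pass the test (interval -0.02 to 0.44, adjusted p = 0.180, limma) and was 0.11 without CHOW replicate 4. The other *Dpp4* probes gave 0.26 and 0.09, neither called.

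*Mep1a* and *Mep1b* encode the α and β subunits of meprin, a metalloendopeptidase that cuts within peptides. The *Mep1a* probe (chr17:43611284-43611343, mm9) ran from 14.31 to 15.19 on CHOW (median 14.94) and from 15.14 to 15.73 on HFD (median 15.43), with 5 of 6 HFD arrays above all CHOW arrays. The log2 fold change of *Mep1a* was 0.55 (standard error 0.15, adjusted p = 0.0130, limma), and the within-slide differences were uneven, from 0.18 to 1.09. *Mep1b* ran from 13.13 to 13.74 on CHOW (median 13.42) and from 13.27 to 13.73 on HFD (median 13.55). No HFD array exceeded the highest CHOW array, and the log2 fold change of *Mep1b* was 0.09 (interval -0.16 to 0.33, adjusted p = 0.638, limma), with -0.05 to 0.32 within the 3 slides. Leaving out single arrays moved the *Mep1b* value between 0.024 (without CHOW replicate 4) and 0.15 (without CHOW replicate 2). Whether the subunits differed in their response was not tested.

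*Ace* encodes angiotensin-converting enzyme, a peptidase that takes dipeptides from the C-terminus and is known both from vessels and from the brush border. Its probe lies at chr11:105850398-105850457 (mm9). *Ace* gave 11.43, 12.02 and 12.46 on CHOW and 13.21, 13.60 and 14.01 on HFD (lowest, median and highest). The groups did not overlap. The log2 fold change of *Ace* was 1.55 (standard error 0.24, adjusted p = 8.25e-05, limma), with 1.21 to 1.95 within the 3 slides and 1.44 to 1.65 when each array was left out in turn.

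*Xpnpep2* encodes membrane-bound aminopeptidase P, which removes an N-terminal residue that precedes proline. Its probe (chrX:45489786-45489845, mm9) gave 14.72, 15.11 and 15.44 on CHOW and 15.59, 15.68 and 15.90 on HFD. The groups again did not overlap. The log2 fold change of *Xpnpep2* was 0.60 (standard error 0.12, adjusted p = 0.00100, limma), nearly the same on every slide (0.57 to 0.67), and the dimmer probe gave 0.54 (adjusted p = 0.0188, limma). *Ace* and *Xpnpep2* were thus the 2 genes with all HFD arrays above all CHOW arrays, a pattern seen in 5.11% of all names.

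The 9 genes did not vary independently within groups. In iPGC1afl/fl mice on CHOW, replicate 4 was the lowest array for 7 of the 9 genes and replicate 2 the highest for 7, and without replicate 4 the diet comparison still called 5. After values were centred on their group means, the 36 pairs of genes correlated over the 18 arrays with r from -0.15 (*Enpep* and *Ace*) to 0.87 (*Slc6a19* and *Dpp4*), with a median of 0.52 and 34 pairs above 0. All points share an array and its normalisation, and pairs of other genes were not computed for comparison. The genes outside the set whose centred pattern was most like the mean of the 9 were *Mpp5* (r = 0.92), 9130230L23Rik (0.91), *Cdc42se2* (0.91), *Gpd2* (0.91) and *Clca4a* (0.90), over 18 arrays.

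The effect of genotype was examined by setting the iPGC1a-/- arrays against iPGC1afl/fl, both on HFD. None of the 9 genes passed the test (0 of 9, against 0.227% of all names), and log2 fold changes ran from -0.09 (*Mep1a*) to 0.63 (*Ace*), with a median of 0.11 against 0.01 over all names. That median was 0.017 and 0.042 when the background-subtracted signal and the median signal, respectively, were scaled to the 75th percentile, and 0.062 without iPGC1afl/fl HFD replicate 1. The 95% confidence intervals were -0.46 to 0.33 for *Slc15a1* and -0.20 to 0.33 for *Slc6a19*. They were -0.02 to 0.25 for *Anpep*, -0.03 to 0.38 for *Enpep*, -0.12 to 0.34 for *Dpp4*, -0.41 to 0.23 for *Mep1a* and -0.20 to 0.30 for *Xpnpep2*. Dimmer probes gave 0.20 (*Slc15a1*), -0.08 (*Enpep*), -0.07 and -0.01 (*Dpp4*) and -0.16 (*Xpnpep2*), none called and each of opposite sign to the brightest probe. No gene had groups that did not overlap, against 0.966% of all names.

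At an unadjusted p under 0.05, *Ace* and *Mep1b* were counted (2 of 9, against 9.3% of all names). *Ace* gave 13.59, 13.91 and 15.09 (lowest, median and highest) in iPGC1a-/- mice, a log2 fold change of 0.63 (interval 0.14 to 1.13, unadjusted p = 0.0147, adjusted p = 0.421, limma). Only 2 of 6 iPGC1a-/- arrays, replicates 2 and 6 at 14.90 and 15.09, exceeded the highest iPGC1afl/fl array, and the remaining 4 lay within 13.59 to 13.92. Without replicate 6 the *Ace* value was 0.46. *Mep1b* gave 13.56, 13.78 and 14.16 in iPGC1a-/- mice, with 4 of 6 arrays above every iPGC1afl/fl HFD array and a log2 fold change of 0.27 (interval 0.02 to 0.51, unadjusted p = 0.0349, adjusted p = 0.495, limma).

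**Figure D2:**
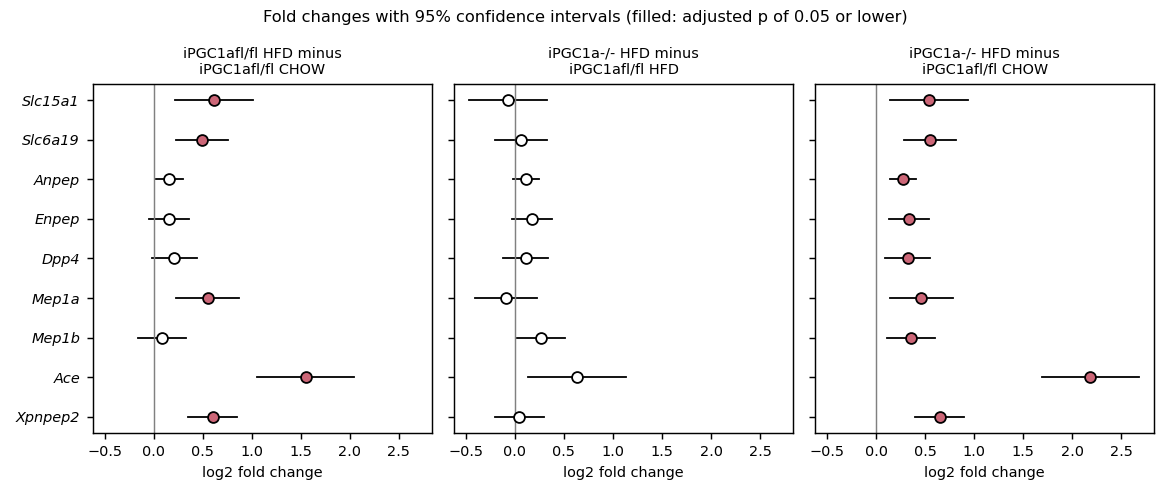
Points are log2 fold changes of each gene with 95% confidence intervals (lines) in the 3 comparisons, filled where the adjusted p was 0.05 or lower. The filled points are 5 for diet, 0 for genotype and 9 where both differed, and *Ace* lies furthest to the right in each panel.

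When iPGC1a-/- mice on HFD were set against iPGC1afl/fl mice on CHOW, diet and genotype label differed together, and the arrays are shared with both comparisons above. At their brightest probes all 9 genes were higher at an adjusted p of 0.05 or lower, against 16.8% of all names. The dimmer probe of *Slc15a1* also passed (adjusted p = 0.00183, limma). Those of *Enpep* (0.148), *Dpp4* (0.294 and 0.649) and *Xpnpep2* (0.0700) did not. With the mean of all probes of a gene, 8 genes were called. *Ace* had a log2 fold change of 2.19 (4.55-fold, adjusted p = 1.46e-06, limma) and *Xpnpep2* of 0.65 (adjusted p = 0.000349), and these 2 also passed a fold change above 1.5 (4.94% of all names). The genes not called for diet alone gave 0.27 (*Anpep*, adjusted p = 0.00287), 0.34 (*Enpep*, 0.0114), 0.32 (*Dpp4*, 0.0302) and 0.35 (*Mep1b*, 0.0249). *Anpep* and *Ace* had groups that did not overlap (7.54% of all names). The normalisation sets values by rank, and *Anpep* read 17.73 in iPGC1a-/- replicates 1, 3 and 4 alike. Before normalisation its raw signals overlapped, at 167327 to 215512 on CHOW and 186796 to 231607 in iPGC1a-/- mice. iPGC1a-/- replicate 6 was the highest array of its group for 7 of the 9 genes, and without it 5 of 9 were called.

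The genes around this set were mixed under HFD in iPGC1afl/fl mice. Of 15 other peptidases listed for the brush border, 9 were bright enough to test, and 4 rose and 0 fell (median log2 fold change 0.20). These were *Naaladl1*, a glutamate carboxypeptidase relative (0.87, adjusted p = 0.00252), *Ggt1*, which opens glutathione (0.84, adjusted p = 1.25e-05), *Dpep1*, a dipeptidase (0.76, adjusted p = 6.58e-06), and *Mmel1*, a neprilysin relative (0.38, adjusted p = 0.0126). *Mmel1* was dim, with mean log2 signals of 5.16 on CHOW and 5.54 on HFD. Among 22 cytosolic and lysosomal peptidases, which finish peptides inside the cell, 5 rose and 2 fell (median 0.04). The risers were *Acy3* (1.01), *Cndp2* (0.55), *Acy1* (0.50), *Pepd* (0.41) and *Apeh* (0.26), and *Rnpep* and *Blmh* fell by 0.22 and 0.26 on the log2 scale.

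Transporters moved both ways. On the apical side 3 of 11 tested genes rose and 2 fell (median 0.06). *Slc15a2*, the high-affinity relative of *Slc15a1*, rose by 1.84 with a large standard error of 0.63 (adjusted p = 0.0400, limma). The imino acid transporter genes *Slc6a20a* and *Slc6a20b* rose by 1.29 and 1.34, and as near-identical copies they may share probe signal. *Slc1a5*, a glutamine transporter gene, fell by 0.63 and *Slc6a18*, a relative of *Slc6a19*, fell by 0.42. *Slc6a18* was dim, with mean log2 signals of 5.66 on CHOW and 5.24 on HFD. On the basolateral side 5 of 11 rose and 3 fell (median 0.11). *Slc7a8* (0.98) and *Slc16a10* (0.64), which carry neutral and aromatic amino acids to blood, rose, while *Slc7a1*, a cationic amino acid transporter gene, fell by 0.85, *Slc7a6* fell by 0.68 and *Slc38a1*, a glutamine transporter gene, fell by 0.67. Of the partners of these transporters, the scaffold genes *Pdzk1* (0.53) and *Slc9a3r1* (0.36) rose and *Slc9a3*, the sodium-proton exchanger that sustains the proton gradient for peptide uptake, fell by 0.94 (adjusted p = 0.00342, limma). *Tmem27* was too dim to test.

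Of 16 genes listed for brush-border structure, 2 rose, namely *Myo1a*, a microvillus motor gene (0.25), and *Plb1* (0.74), which encodes a membrane phospholipase of the brush border and no structural protein, and 2 fell (*Tmigd1* and *Baiap2l1*, by 0.66 and 0.63), with a median of 0.18. Of 15 enterocyte transcription factors, 4 rose and 3 fell (median -0.05). *Ppara*, the fatty acid receptor, rose by 1.63 (adjusted p = 7.81e-09, limma), *Gata5* by 0.61, *Creb3l3* by 0.50 and *Hnf4g* by 0.36, whereas *Nr1h4*, the bile acid receptor, fell by 0.78, *Klf4* by 0.40 and *Cdx1* by 0.27. *Hnf4a* (-0.13), *Cdx2* (-0.09), *Gata4* (-0.05) and *Klf5* (-0.11) did not pass the test, nor did *Gata6* (0.25) and *Maf* (0.01). Between genotypes 0 genes of any of these lists were called, with log2 fold changes from -0.71 to 0.63 among apical transporters and from -0.20 to 0.24 among other brush-border peptidases.

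**Figure D3:**
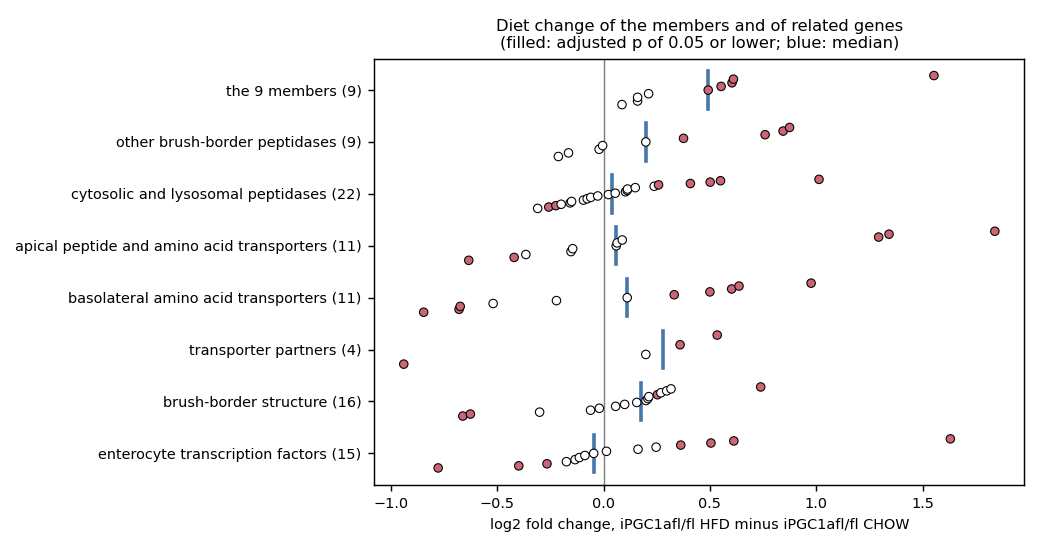
Points are log2 fold changes of single genes for iPGC1afl/fl HFD minus iPGC1afl/fl CHOW, by list with the number of tested genes in brackets, filled at an adjusted p of 0.05 or lower, and blue bars are medians. The median of the 9 genes (0.49) lies right of the other list medians, which run from -0.05 to 0.28.

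Markers of the cell types were read beside these values. All 6 enterocyte markers were detected, and the cells carried high signals of *Vil1* (16.29 on CHOW and 16.49 on HFD). For diet 1 of 6 enterocyte markers was higher (*Alpi*, 0.90) and the median was 0.12, with *Vil1* at 0.20 (adjusted p = 0.0947, limma). All 3 markers of ileal enterocytes were detected, with *Fgf15* higher by 2.47, *Slc10a2* lower (-1.07) and *Fabp6* at -0.11, not called. All 4 tested T cell markers fell (median -1.68), as did 4 of 4 B cell markers (-1.97), 3 of 3 tested plasma cell markers (-1.68) and 5 of 5 goblet cell markers (-0.68). *Mki67* and *Top2a* were the 2 of 5 crypt markers that fell. Single markers also fell in other lists, namely *Chga* of 5 enteroendocrine markers (-0.80), *Mmp7* of 5 Paneth markers (-0.69), *Trpm5* of 2 tested tuft markers (-0.63) and *Cd68* of 3 tested macrophage markers (-0.31), and 0 of 3 tested stromal markers were called. The summed signal of the T cell markers was 11582 to 42357 on CHOW, 4447 to 8456 on HFD and 6163 to 10446 in iPGC1a-/- mice on HFD. That of the B cell markers was 514 to 3164 on CHOW, 159 to 993 on HFD and 283 to 706 in iPGC1a-/- mice. Plasma cell markers summed to 568 to 1518, 126 to 407 and 188 to 387, and goblet markers to 414566 to 545960, 181014 to 447372 and 276349 to 401266, in the same order. Enterocyte markers summed to 538851 to 635937, 562132 to 670078 and 621842 to 722493. The sums add linear signals, so the brightest marker weighs most. On CHOW *Gzma* had a mean log2 signal of 14.38, against 8.73 to 10.72 for the other tested T cell markers. *Fabp2*, at 18.17 on CHOW, was the brightest enterocyte marker. The part of these marker differences in the diet values of the 9 genes was not tested. Of the vessel markers, which bear on *Ace*, *Pecam1* was detected at a difference of 0.12 (adjusted p = 0.307, limma), while *Cdh5* and *Kdr* were too dim to test. *Pecam1* itself was dim, with mean log2 signals of 5.85 on CHOW and 5.97 on HFD. It was called higher in iPGC1a-/- mice on HFD against iPGC1afl/fl mice on CHOW (0.23, adjusted p = 0.0395, limma). The markers *Il25* (tuft), *Tnfrsf17* (plasma cell), *Adgre1* (macrophage), *Col1a1* and *Pdgfra* (stroma) were also too dim. No marker was called between genotypes.

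**Figure D4:**
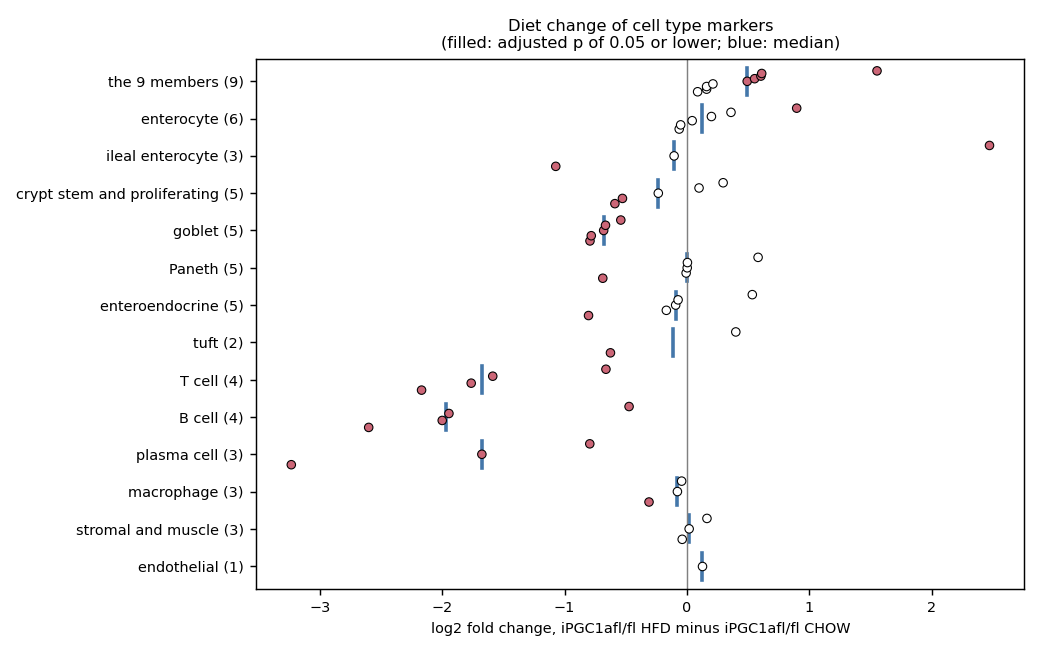
Points are log2 fold changes of cell type markers for iPGC1afl/fl HFD minus iPGC1afl/fl CHOW, with the number tested in brackets, filled at an adjusted p of 0.05 or lower, and blue bars are medians. T cell, B cell and plasma cell markers lie left of 0, and the 9 genes right of 0.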

How the data were processed

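Ileum cell RNA of 18 mice was measured on Agilent single-colour arrays, 1 per mouse, on 3 slides with 2 arrays of each group. The authors deposited spot intensity values from Feature Extraction 10.10.1.1 and a value table on the log2 scale, and their methods name a filter, a log2 step, a batch correction (labelling serials and washing bath) and qsmooth normalisation. Those batches are not named in the sources used here, so that correction was not repeated. The feeding cohort of each array is not named either.

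From the scanner files, control spots were removed with 46 to 153 outlier spots per array, spots of a probe were averaged, and a probe was kept if 1 group or more had 5 of its 6 arrays well above background (32726 of 56605 probes). The log2 median signal was normalised by a reimplementation of qsmooth (window 0.05, R 4.3.3) and tested with limma 3.58.1 (lmFit, eBayes). The model held all 3 groups, p-values were Benjamini-Hochberg adjusted over all probes, and single genes stand for their brightest probe. A gene was called at an adjusted p of 0.05 or lower, the threshold in the methods. Other software was matplotlib 3.10.9, Python 3.11.15 and the R package data.table, version 1.17.8. The procedure was tested on simulated data.

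The 9 genes and all lists were chosen with earlier results of these data known. Named besides them are all partners and transcription factors, up to 5 called genes per other list with the largest change, the 5 genes most alike in pattern, and *Ppargc1a* and *Vil1* as checks. Other genes, markers among them, were named after their values were seen, and single results of some listed genes are not reported here. Of the array's gene names, 23666 matched a GRCm38.p6 symbol and 1121 an older synonym. Probe coordinates are those of the array files (mm9), and exons were not determined. Alternatives covered background correction, normalisation, the filter, the authors' log2 values, slide and replicate blocks, the samples fitted, variance model, array weights, averaged probes, thresholds and each array left out.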

Additional observations from a re-analysis of the deposited data

How the results depend on the processing

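For diet, 3 to 6 of the 9 genes were called over 15 processing alternatives, with 3 at a fold change above 1.5 and 3 at an adjusted p of 0.01 or lower, and 4 to 6 were called when each array was left out. All diet differences kept their positive sign. *Slc15a1* lost its call in 5 fits given with its values, and *Anpep* gained one with normexp background correction (adjusted p = 0.0467), a trended and robust variance (0.0467) and without iPGC1afl/fl HFD replicate 1 (0.0404). Scaling the background-subtracted signal to the 75th percentile raised the diet values of *Anpep* (0.32), *Enpep* (0.30), *Dpp4* (0.35) and *Mep1b* (0.22), none called, and the cause was not tested. The median over all names moved by less than 0.1 under every scaling. For genotype, 0 genes were called in any fit. *Xpnpep2* reversed to -0.029 and -0.032 when the 75th percentile scaled background-subtracted and median signals respectively, and to -0.056 with the mean of all probes, and ran from -0.019 (without iPGC1a-/- replicate 6) to 0.13 with an array left out. *Slc15a1* reversed to 0.068 with the mean of all probes, and *Mep1a* ran from -0.15 to 0.020 with an array left out, the latter without iPGC1a-/- replicate 2. The cause was not tested. For iPGC1a-/- HFD against iPGC1afl/fl CHOW, 2 genes were called at a fold change above 1.5, 4 at an adjusted p of 0.01 or lower, and 5 to 9 with an array left out, the lowest without iPGC1a-/- replicate 6. Whether replicate numbers pair the samples was not settled. For diet, r of same-numbered deviations ran from -0.13 to 0.28, with 3 of 6 arrays closest to their own number. For genotype, r ran from -0.19 to 0.33, with 2 of 6. With the replicate block 5, 0 and 9 genes were called in the 3 comparisons, as without it.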
